A study of Mus musculus with 9 samples.

Results

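The genes encoding translation initiation and elongation factors other than the eIF4 group were followed in mouse embryonic stem (ES) cells. They were chosen by name: every named row of the expression table that starts with Eif1, Eif2, Eif3, Eif5, Eif6 or Eef, leaving out the eIF2 kinases, whose symbols start Eif2ak (4 rows). The rule found 44 genes among 24044 named rows. The 3 established ES cell lines were Oct4 GiP, which reports on activity of the pluripotency gene Oct4, v6.5 and E14, and growing each in 3 conditions gave 9 RNA-seq libraries, 1 per line and condition. Paused cells received the mTor kinase inhibitor INK128 at 200 nM for 2 weeks, and the labels do not say which medium they were in. The 2i cells carry the usual name for culture with inhibitors of the kinases MEK and GSK3, without a stated composition, and the Serum cells were in serum. All cells of the 9 libraries were grown on gelatin for 2 weeks, all RNA carried ERCC spike-in RNA, and each library began from 250 ng of total RNA. The study compared the RNA of ES cells in the paused state with that of ES cells in 2i and in serum.

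Translation of most messenger RNAs (mRNAs) begins when eIF2 brings the initiator tRNA to the small ribosomal subunit, where eIF1, eIF1A, eIF3 and eIF5 help it find the start codon. eIF5B then joins the large subunit, and eEF1A and eEF2 carry tRNAs in and move the ribosome along the message. The mTor kinase drives protein synthesis, and many mRNAs of ribosomal proteins and elongation factors start with a run of pyrimidines, the 5′ TOP motif, through which their translation follows mTor activity.

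The deposited values are FPKM, that is, fragments scaled to gene length and library size, so levels of different genes can be set side by side, and the read depth of the libraries is unknown. Of the 44 factors, 42 reached an FPKM of 1 in at least 3 of the 9 libraries and were tested among 12711 genes. The tests were limma-trend contrasts on log2(FPKM + 1) with the line as a block and Benjamini-Hochberg adjustment over all tested genes, and a change was called at an adjusted p under 0.05. Fold changes are log2 values on that scale ± the standard error, which understate changes of low genes, and levels are FPKM, as mean ± SD of 3 libraries where averaged. Values of single libraries are in the order E14, v6.5, Oct4 GiP. The 3 libraries of a condition come from different lines, and nothing says that a line was cultured more than once. The authors also deposited each library's FPKM multiplied by a constant, and on that scale the median of all tested genes moved by -0.88 in Paused against Serum, -0.33 in 2i against Serum and -0.56 in Paused against 2i. Every change below is in FPKM, and so relative to that shift, unless the authors' scale is named.

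All 8 ES cell markers of the list used here, such as Pou5f1 and Nanog, were expressed, with summed levels of 5700 to 6380 FPKM in Paused, 3870 to 4640 in 2i and 3700 to 5250 in Serum. Fibroblast markers summed to 7.33 to 13.9 FPKM in Paused, 3.89 to 5.09 in 2i and 31.5 to 137 in Serum. Of these 7, 4 were testable and none was listed at 0 throughout. All 4 were called lower than in Serum, both in Paused, against 10.5% of all tested genes, and in 2i, against 18.9%. In Serum the fibroblast sum was mostly Tagln, at a mean of 64.0 FPKM, and Col1a2, Postn and Lum were too low to test. Trophoblast markers summed to 7.25 to 24.2 FPKM in Paused, 14.6 to 21.8 in 2i and 45.7 to 279 in Serum. Of 3 testable genes, 2 were called lower than in Serum, both in Paused, against 10.5% of all tested genes, and in 2i, against 18.9%. These 2 were the keratins Krt8 and Krt18, which made up most of the Serum sum, at means of 82.8 and 54.2 FPKM. Cdx2, Elf5 and Hand1 were too low to test, and Eomes, not called against Serum, averaged 4.10 FPKM in 2i and 2.13 in Serum. Primitive endoderm markers summed to at most 4.64 FPKM in all 9 libraries. Of the ES cell list, 5 of 8 were called higher in Paused than in 2i, against 19.8% of all tested genes, and 1 lower, against 24.6%. The median of the list was 0.55 in FPKM there. In Paused against Serum 1 was called higher, against 7.64% of genes. Of the 5 higher in Paused than in 2i, Pou5f1 turned to -0.10 on the authors' scale. The fibroblast and trophoblast lists moved with the comparisons against Serum and the ES cell list with that against 2i, and their part in the values below was not tested. In bulk RNA, fewer cells of a type and less RNA per cell cannot be told apart.

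Together the 44 genes made up 1.17% to 1.55% of the summed FPKM of named rows in a library. Eef2 was the most abundant at a mean of 1582 FPKM over the 9 libraries, followed by Eif5a at 1205, Eef1g at 1150.4, Eef1b2 at 801 and Eif2s2 at 621. Eef1a1, the main carrier of aminoacyl-tRNA and an abundant mRNA of most cells, was listed at 0 in all 9 libraries, which may be a failed estimate, and gives no comparison. Its relative Eef1a2, known from muscle and neurons, was listed at 0.367, 0.427 and 0.120 FPKM in Paused, 0.125, 0.159 and 0.0134 in 2i and 0.954, 1.87 and 0.770 in Serum, and was too low to test.

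Because the 5′ TOP motif lies at the very start of the mRNA, the first bases of 9 factors are shown, from 5 bases before to 25 bases after the RefSeq start on GRCm38.p6. Capitals mark the longest run that opens with C and goes on with C or T for 7 bases or more. It was read only on the strand with the sequence of the RNA, since the run acts in the RNA. Such a run can lie anywhere in the window, as in Eef2 and Eif3k, where it lies near the end, so it need not be a 5′ TOP motif. The starts used in these cells were not measured, so a window without a run does not show that the mRNA lacks the motif. Eef2 is shown as the factor that was higher in Paused than in both other conditions, Eif3f, Eif3k and Eif3l as eIF3 genes with a run, Eif2s3x and Eif2s3y as the pair on the sex chromosomes, and Eif2b2 as an eIF2B gene with a run. Eef1b2 and Eif2b4 are shown as genes that hold none in the window and whose calls in Paused against 2i held whichever single library was left out.
Eef2, chr10:81176626-81176655, plus strand: cgggcgttgacgtcagcggtCTCTTCCgcc
Eif3f, chr7:108934410-108934439, plus strand: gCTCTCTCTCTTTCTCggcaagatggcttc
Eif3l, chr15:79075218-79075247, plus strand: cttcttccgCTCTCTCCCacgggcttctgg
Eif3k, chr7:28981864-28981893, minus strand: gcgctggtgctgaaagcgCCTTTCCCTTTg
Eif2s3x, chrX:94212627-94212656, minus strand: ttttCCTTTTCTCTCCgagcaagatggctg
Eif2s3y, chrY:1010590-1010619, plus strand: cagccaCTTCCTTCTTTCgtgagcaagatg
Eif2b2, chr12:85219476-85219505, plus strand: cggaagttgaCCTCTCTCggcccggaagtg
Eef1b2, chr1:63176826-63176855, plus strand: gttccgccggaagtagccgaggccttgcgt
Eif2b4, chr5:31193115-31193144, minus strand: tgcacgccggaagttgtagtccgctgggga

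A start window was found for 36 of the 44 factors, and 11 of them (30.6%) held such a run, against 14.8% of the 9168 tested genes with a window and 14.1% of all 27025 genes in the table. The 11 were Eef1a1, Eef1a2, Eef1e1, Eef2, Eif2b2, Eif2b5, Eif2s3x, Eif2s3y, Eif3f, Eif3k and Eif3l. The 36 include Eef1a1 and Eef1a2, which were not tested, so shares of tested genes are not on like sets with those of the factors. The E-box CACGTG, which reads the same on both strands and is bound by MYC among other factors, was sought apart from the run in the 300 bases around each start, and 8 of the 36 factors (22.2%) held it, against 12.1% of the tested genes. A match describes letters only. Runs stood beside genes that moved in each direction: among the factors called below with a window, the run was in Eef2, the 1 factor higher in Paused than in Serum, in 2 of the 9 lower in Paused than in Serum, and in 4 of the 16 lower in 2i than in Serum.

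The comparison of Paused with Serum cells asks which factors differed between cells given the mTor inhibitor and cells in serum. Because the medium of the Paused cells is not stated, inhibitor and medium cannot be told apart here. Eef2, the factor that moves the ribosome along the message, was higher in Paused, and 12 initiation and elongation factors were lower, led by Eef1d, Eif6, Eif2b4 and Eif5a. The 12 were Eif1, Eif1ad, Eif2s1, Eif2s3x, Eif2d, Eif2b1, Eif2b2, Eif2b4, Eif3i, Eif6, Eif5a and Eef1d. So 13 of 42 were called, against 18.2% of all 12711 genes, with 1 called higher against 7.64% of genes and 12 called lower against 10.5%. Fold changes were below 0 for 35 of the 42 factors (83.3%) and for 51.1% of all tested genes, and the median factor stood at -0.20, against -0.01 for all tested genes. That median of the factors was -0.19 for E14, -0.17 for v6.5 and -0.20 for Oct4 GiP. None of the 13 calls held in all 9 fits that left out 1 library: the number called lower was 0 without the Paused library of any line or the Serum library of Oct4 GiP and 3 without the Serum library of E14 or of v6.5. The number called higher was 0 without a Paused library of any line or the Serum library of E14 or Oct4 GiP. The calls of all tested genes fell too, from 2311 in the full fit. Without a Paused library of any line or the Serum library of Oct4 GiP, 12 to 38 genes were called. Without the Serum library of E14 and of v6.5, 729 and 787 genes were called. At an unadjusted limma-trend p under 0.05, leaving out a Paused or Serum library gave 12 to 18 factors lower and 1 to 2 higher. The share of all tested genes at that cutoff is not given here, so these counts make no comparison with other genes.

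The 2i cells were compared with Serum cells as the other defined ES cell state. More factors were called than in Paused: 21 were lower, among them 10 of the 13 eIF3 subunits, and 3 were higher, namely Eif2b5, Eef2k and Eef2kmt. So 24 of 42 were called, against 40.6% of all genes, with 3 called higher against 21.7% and 21 called lower against 18.9%. The median factor stood at -0.28, against 0.02 for all tested genes, and at -0.22 for E14, -0.32 for v6.5 and -0.33 for Oct4 GiP. The calls of 8 factors, all lower in 2i, held whichever single library was left out: Eif2a, Eif2s1, Eif2s3x, Eif3b, Eif3j1, Eif3m, Eif5a and Eif6. The number called lower was 10 without the 2i library of v6.5 or the Serum library of Oct4 GiP, and 11 without the 2i library of Oct4 GiP or the Serum library of v6.5. The number called higher was 0 without the 2i library of v6.5, where 2 had an unadjusted p under 0.05, and 1 without the 2i library of E14 or Oct4 GiP, the Paused library of E14 or any Serum library. Over the fits that left out 1 library, 2969 to 5436 of all tested genes were called, against 5161 in the full fit.

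Paused cells were compared with 2i cells directly, since both differed from Serum. In this comparison 10 factors were higher in Paused, led by Eef2 and Eef1b2, and 6 were lower, led by Eif2s2 and Eif2b4. The others higher were Eif5a, Eif2s1, Eif3l, Eef1g, Eif3j1, Eif3m, Eif2a and Eif3b, and the others lower were Eif1, Eif2d, Eif2b2 and Eif2b5. So 16 of 42 were called, against 44.4% of all genes, with 10 called higher against 19.8% and 6 called lower against 24.6%. Centred on the median gene of each library, 14 were called higher and 4 lower. Centring shifts all genes of a library alike, and the shares of all genes called after it are not given here. The median factor stood at 0.13, against -0.03 for all tested genes, and at -0.02 for E14, 0.17 for v6.5 and 0.17 for Oct4 GiP. The calls of Eef1b2, Eef2 and Eif2b4 held whichever single library was left out. The number called higher was 2 without the Paused library of v6.5, 3 without the 2i library of v6.5 or Oct4 GiP, the Paused library of Oct4 GiP or the Serum library of Oct4 GiP, and 5 without the Paused library of E14. The number called lower was 2 without the Paused library of E14 and 3 without the Paused library of v6.5 or the 2i library of E14 or v6.5. Over the fits that left out 1 library, 3543 to 5611 of all tested genes were called, against 5638 in the full fit.

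Any pair of these comparisons shares the libraries of 1 condition, so the calls are set side by side. Eif2s1 and Eif5a were called in all 3 comparisons, lowest in 2i and between in Paused. Eif2a, Eif3b, Eif3j1, Eif3l, Eif3m, Eef1b2 and Eef1g were lower in 2i than in Serum and higher in Paused than in 2i, with no call in Paused against Serum. Eif1, Eif2d, Eif2b2 and Eif2b4 were lower in Paused than in both other conditions. For 11 factors no comparison gave a call, among them Eif3a, Eif3c, Eif5 and Eif5b.

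**Figure D1:**
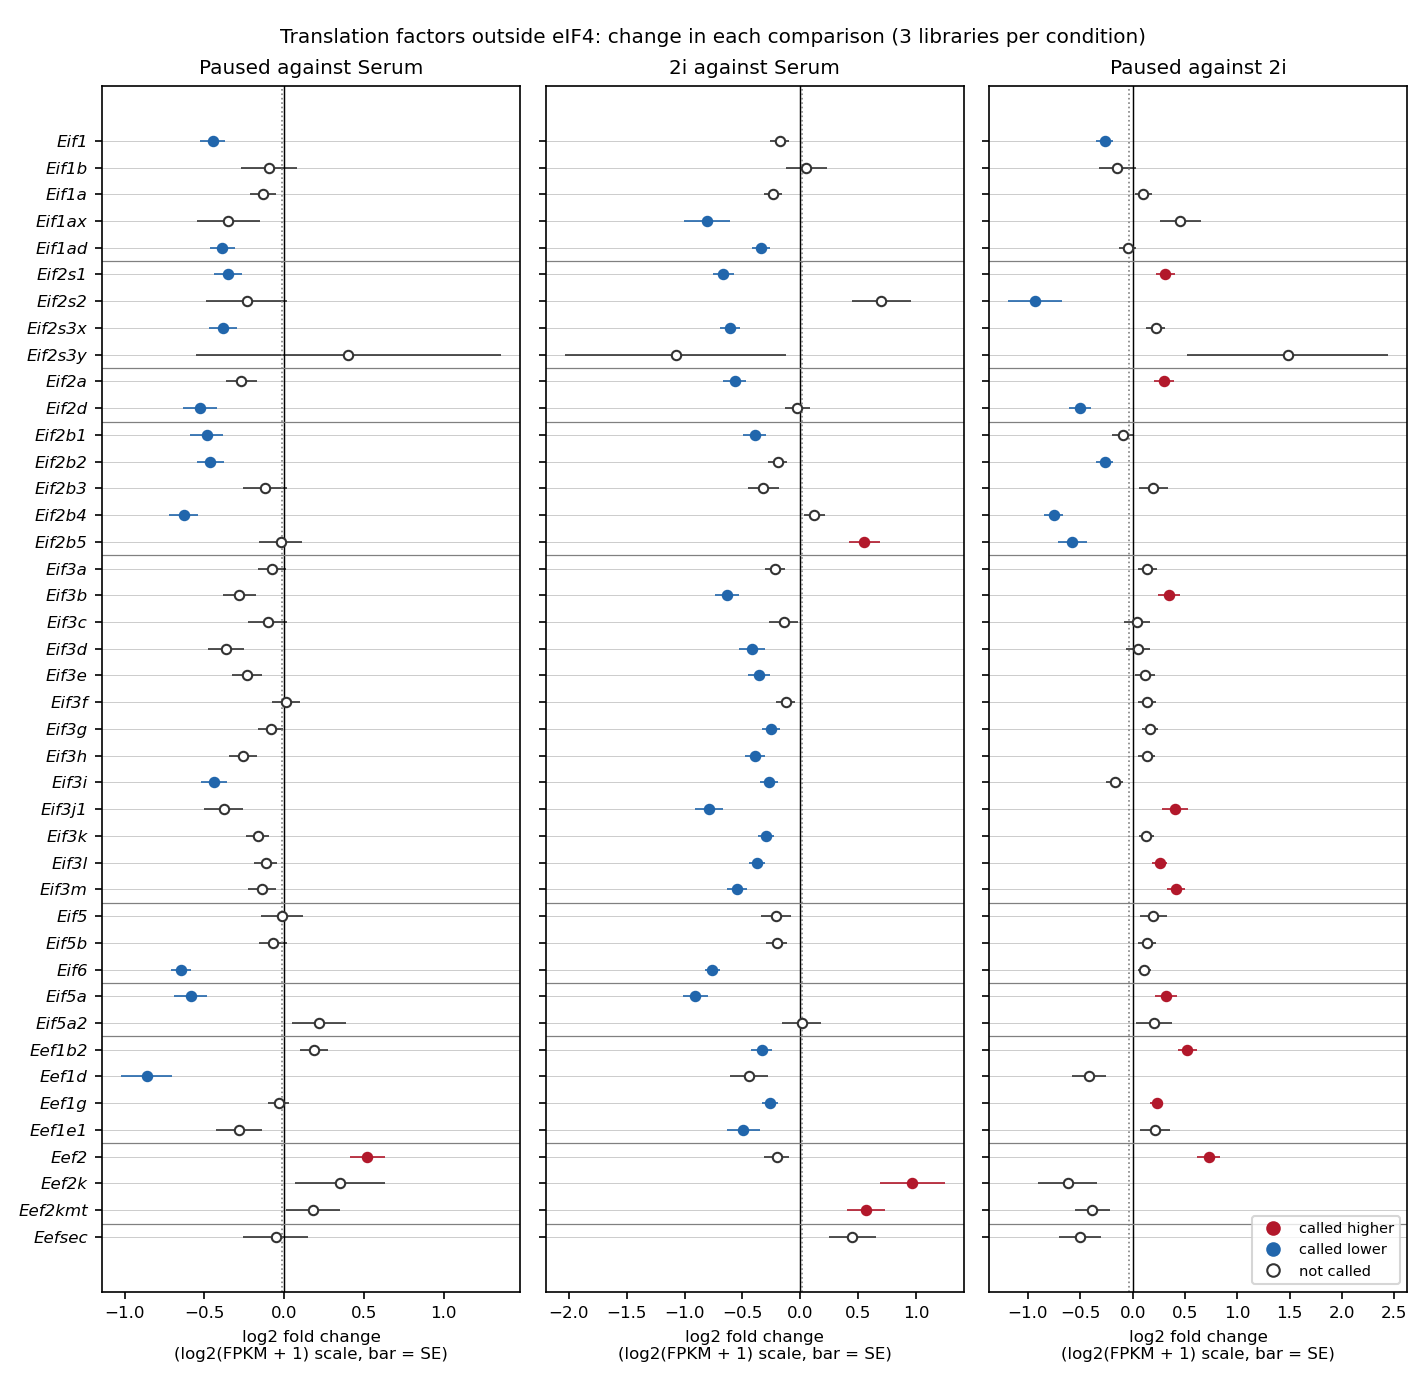
Log2 fold changes (log2(FPKM + 1) scale, bar = standard error) of the 42 tested factors in each comparison, grouped by role from eIF1 at the top to Eefsec at the bottom; filled points passed the threshold, and the dotted line is the median of all tested genes. Most points lie left of 0 against Serum (medians -0.20 and -0.28), while Eef2 lies at 0.52 in Paused against Serum and 0.73 in Paused against 2i; on the authors' scale these stand at -0.41 and 0.16.

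In the eIF1 family, which guides the choice of the start codon, 2 of 5 genes were called lower in Paused than in Serum, against 10.5% of all tested genes. In 2i against Serum 2 were called lower, against 18.9%. In Paused against 2i 1 was called lower, against 24.6%, so no more than a single gene there. Eif1 stood at 261, 257 and 243 FPKM in Paused, 329, 328 and 264 in 2i and 356, 346 and 336 in Serum. Its Paused libraries lay below all others, and its fold change was -0.45 ± 0.080, adjusted p = 0.02 in Paused against Serum and -0.27 ± 0.080, adjusted p = 0.034 in Paused against 2i. RefSeq names 3 pseudogenes of Eif1, so its reads may be shared. Eif1ax, the X-linked gene of eIF1A, had 151, 159 and 159 FPKM in Paused, 142, 94.5 and 109 in 2i and 167, 246 and 193 in Serum, and it was lower in 2i than in Serum (-0.80 ± 0.20, adjusted p = 0.02). The size of that change differed among lines, at -0.22 for E14, -1.37 for v6.5 and -0.82 for Oct4 GiP. Eif1b, a close relative of Eif1, had 24.99, 32.3 and 26.6 FPKM in Paused, 38.2, 30.7 and 25.1 in 2i and 24.9, 36.4 and 29.0 in Serum, and these overlapped. Eif1ad, a relative of eIF1A, averaged 30.1 ± 2.36 FPKM in Paused, 31.1 ± 0.937 in 2i and 39.6 ± 1.82 in Serum, and was lower in both Paused (-0.39) and 2i (-0.34) than in Serum.

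eIF2 is made of an alpha, a beta and a gamma subunit and binds the initiator tRNA, and phosphorylation of the alpha subunit by stress kinases limits initiation. Eif2s1, the alpha subunit gene, had 66.9, 69.0 and 66.5 FPKM in Paused, 61.9, 51.0 and 50.1 in 2i and 89.0, 84.0 and 85.9 in Serum. The 3 conditions did not overlap, and Eif2s1 was lower in Paused (-0.35 ± 0.088, adjusted p = 0.042) and in 2i (-0.66 ± 0.088, adjusted p = 0.0029) than in Serum and higher in Paused than in 2i (0.31 ± 0.088, adjusted p = 0.029). Eif2s3x, the X-linked gamma subunit gene, followed the same order, with 111, 112 and 107 FPKM in Paused, 105, 90.0 and 89.0 in 2i and 140.4, 157 and 135 in Serum. It was lower than in Serum both in Paused (-0.38 ± 0.089, adjusted p = 0.034) and in 2i (-0.61 ± 0.089, adjusted p = 0.0039).

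Eif2s2, the beta subunit gene on chromosome 2 (154871410 to 154892906), was instead highest in 2i. It had 439, 612 and 332 FPKM in Paused, 941, 875 and 758 in 2i and 731, 390.4 and 509 in Serum. Every 2i library lay above all libraries of the other conditions, and Eif2s2 was lower in Paused than in 2i (-0.93 ± 0.26, adjusted p = 0.026), a call lost without the 2i library of any line or the Paused library of E14 or Oct4 GiP. In 2i against Serum its fold change was 0.70 ± 0.26, adjusted p = 0.07, short of the threshold. In Paused against Serum the lines split, at -0.73 for E14, 0.65 for v6.5 and -0.62 for Oct4 GiP. Eif2s2 mRNA per Eif2s1 mRNA, a ratio chosen after these values were seen, was 6.57, 8.87 and 4.98 in Paused, 15.2, 17.2 and 15.1 in 2i and 8.21, 4.65 and 5.93 in Serum. The 2i libraries lay above all others in that ratio, whereas Eif2s3x per Eif2s1 stayed between 1.58 and 1.87 in all 9 libraries.

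Eif2s3y, the Y-linked gamma subunit gene, had 71.2, 17.4 and 70.0 FPKM in Paused, 2.42, 19.9 and 59.6 in 2i and 56.3, 15.3 and 42.8 in Serum. The E14 library in 2i was far below the E14 libraries of the other conditions, at 4.30% of the E14 library in Serum, and the Y-linked genes Ddx3y and Uty stood at 4.14% and 4.01% of it there. The X-linked Eif2s3x and Eif1ax stood at 74.6% and 85.5%. Whether cells without the Y chromosome were in that culture was not tested. No comparison called Eif2s3y. Without the E14 library in 2i its fold change was 0.40 in Paused against Serum, 0.40 in 2i against Serum and 0.00 in Paused against 2i, with adjusted p of 0.057, 0.064 and 0.98 by limma-trend.

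eIF2A and eIF2D can bring a tRNA to the ribosome without eIF2, and eIF2D also acts in recycling. Eif2d had 52.7, 46.3 and 49.95 FPKM in Paused, 67.7, 78.2 and 66.4 in 2i and 77.3, 65.7 and 72.9 in Serum. Its Paused libraries lay below all others, and it was lower in Paused than in Serum (-0.53 ± 0.11, adjusted p = 0.025) and than in 2i (-0.50 ± 0.11, adjusted p = 0.011). Eif2d overlaps Rassf5 in RefSeq, and the counting by strand is not stated, so its level is uncertain to that extent. Eif2a had 58.1, 60.3 and 61.6 FPKM in Paused, 46.5, 47.3 and 52.1 in 2i and 66.3, 83.6 and 68.5 in Serum, lower in 2i than in Serum (-0.57 ± 0.10, adjusted p = 0.0065) and higher in Paused than in 2i (0.30 ± 0.10, adjusted p = 0.048). Eif2a overlaps Serp1 in the same way.

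eIF2B recharges eIF2 with GTP. Its gamma and epsilon subunits carry the catalytic part, and the alpha, beta and delta subunits sense phosphorylated eIF2. In Paused against Serum 3 of the 5 genes were called lower, against 10.5% of all tested genes, and these were the 3 regulatory ones. Their difference from the 2 catalytic ones was not tested. The count was 0 without the Paused library of any line or the Serum library of Oct4 GiP. It was 1 without the Serum library of E14 or of v6.5. The calls of all tested genes fell in the same fits, as given above. In each of these fits 3 eIF2B genes were lower at an unadjusted limma-trend p under 0.05, with no share of all genes at that cutoff. Eif2b4, the delta subunit gene on chromosome 5 (31187558 to 31193139), had 33.9, 31.5 and 34.6 FPKM in Paused, 60.4, 52.8 and 57.7 in 2i and 59.2, 43.3 and 55.2 in Serum. Its Paused libraries lay below all others, and it was lower in Paused than in Serum (-0.63 ± 0.089, adjusted p = 0.014) and than in 2i (-0.75 ± 0.089, adjusted p = 0.0017). Eif2b2, the beta subunit gene, had 36.5, 38.3 and 39.1 FPKM in Paused, 48.6, 47.4 and 42.0 in 2i and 53.5, 52.4 and 52.1 in Serum. It too was lowest in Paused, against Serum (-0.46 ± 0.084, adjusted p = 0.021) and against 2i (-0.27 ± 0.084, adjusted p = 0.04). Eif2b1, the alpha subunit gene, had 52.9, 66.2 and 57.3 FPKM in Paused, 67.8, 61.0 and 58.8 in 2i and 80.0, 83.8 and 83.2 in Serum, and was lower in Paused (-0.48 ± 0.10, adjusted p = 0.028) and in 2i (-0.39 ± 0.10, adjusted p = 0.024) than in Serum.

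Of the catalytic subunits, Eif2b5, the epsilon subunit gene, had 68.2, 80.2 and 63.9 FPKM in Paused, 120.4, 125 and 77.5 in 2i and 76.0, 71.0 and 67.5 in Serum. The 2i libraries of E14 and v6.5 stood above all others, and that of Oct4 GiP lay between the Paused libraries of Oct4 GiP and v6.5. Eif2b5 was higher in 2i than in Serum (0.55 ± 0.14, adjusted p = 0.02) and lower in Paused than in 2i (-0.57 ± 0.14, adjusted p = 0.016). Eif2b3, the gamma subunit gene, averaged 53.4 ± 5.09 FPKM in Paused, 46.9 ± 8.98 in 2i and 58.1 ± 4.53 in Serum, with no call.

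**Figure D2:**
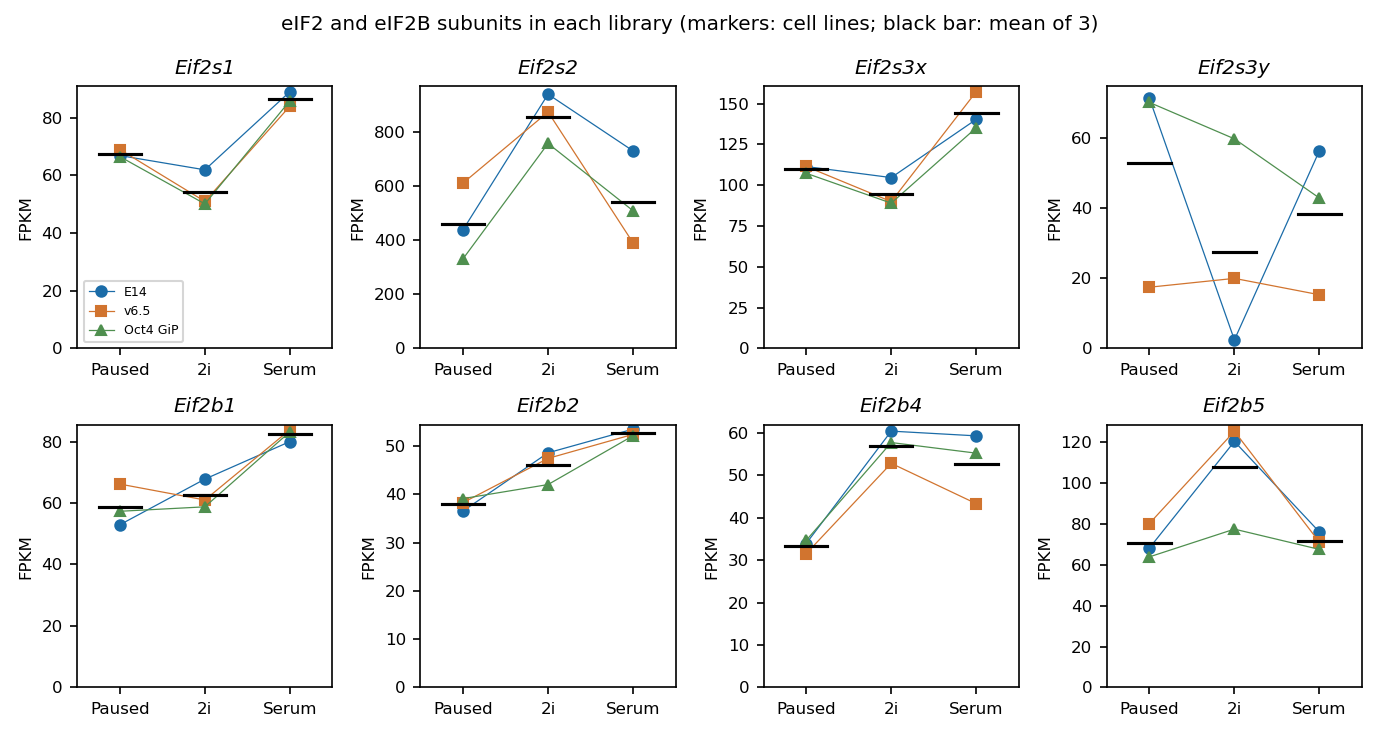
FPKM of 4 eIF2 and 4 eIF2B genes in each library, by condition; markers are the cell lines, thin lines join the libraries of a line and black bars are means of 3. Eif2s2 is highest in the 3 libraries in 2i (758 to 941 FPKM), Eif2b4 and Eif2b2 are lowest in the 3 Paused libraries, and Eif2s3y has its lowest value in the E14 library in 2i (2.42 FPKM).

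eIF3 is the large scaffold complex that holds the small ribosomal subunit open for the mRNA, and its 13 genes were all tested. Of these, 1 was called lower in Paused than in Serum, against 10.5% of all tested genes, and 10 lower in 2i than in Serum, against 18.9%. In Paused against 2i 4 were called higher, against 19.8%, and all 4 stood below 0 on the authors' scale. The count lower in 2i than in Serum was 4 without the Serum library of Oct4 GiP, 5 without the 2i library of either Oct4 GiP or v6.5, and 6 without the Serum library of v6.5. The count higher in Paused than in 2i was 0 without the Paused library of v6.5, where 1 had an unadjusted limma-trend p under 0.05. It was 1 without the 2i library of v6.5 or Oct4 GiP or the Paused or Serum library of Oct4 GiP, and 2 without the Paused library of E14. The 1 call in Paused against Serum was lost without any Paused or Serum library. The median eIF3 gene stood at -0.17 in Paused against Serum, -0.35 in 2i against Serum and 0.14 in Paused against 2i. Eif3i was the gene lower in Paused than in Serum, with 191, 177 and 201 FPKM in Paused, 209, 213 and 217 in 2i and 279, 242 and 252 in Serum (-0.44 ± 0.079, adjusted p = 0.021). It was also lower in 2i than in Serum (-0.27 ± 0.079, adjusted p = 0.036), a call lost whichever single library was left out. In Paused against 2i it was not called (-0.17 ± 0.079, adjusted p = 0.12). Its Paused libraries lay below all others, whereas those of the 4 genes higher in Paused than in 2i lay above all 2i libraries.

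Eif3j1, the gene of the loosely bound subunit j, had the largest eIF3 change in 2i against Serum. It stood at 58.8, 73.1 and 58.3 FPKM in Paused, 54.0, 44.5 and 44.0 in 2i and 77.0, 89.2 and 81.1 in Serum, lower in 2i than in Serum (-0.79 ± 0.12, adjusted p = 0.0047) and higher in Paused than in 2i (0.41 ± 0.12, adjusted p = 0.036). Eif3b, a core subunit, had 257, 282 and 274 FPKM in Paused, 244, 205 and 192 in 2i and 320.4, 342 and 328 in Serum, and the 3 conditions did not overlap. Its fold change was -0.63 ± 0.10, adjusted p = 0.0054 in 2i against Serum and 0.35 ± 0.10, adjusted p = 0.034 in Paused against 2i. Eif3m, a subunit with a PCI domain, had 172, 162 and 156 FPKM in Paused, 144, 114 and 112 in 2i and 182, 179 and 177 in Serum. It was lower in 2i than in Serum (-0.55 ± 0.086, adjusted p = 0.0049) and higher in Paused than in 2i (0.41 ± 0.086, adjusted p = 0.011). In RefSeq Eif3j1 overlaps Spg11 and Eif3m overlaps Ccdc73. Eif3l, with a run of pyrimidines in its start window as shown above, averaged 248 ± 26.2 FPKM in Paused, 206 ± 15.9 in 2i and 268 ± 13.8 in Serum. It was higher in Paused than in 2i (0.26) and lower in 2i than in Serum (-0.38).

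Eif3a and Eif3c, PCI-domain subunits of the core, and Eif3f gave no call in any comparison. Eif3a had 193, 195 and 208 FPKM in Paused, 197, 179 and 165 in 2i and 205, 218 and 205 in Serum. Eif3c had 219.8, 222 and 198 FPKM in Paused, 263, 196 and 173 in 2i and 229.8, 226 and 230.1 in Serum, with the E14 library in 2i the highest of all. Eif3f averaged 208 ± 7.08 FPKM in Paused, 189 ± 6.91 in 2i and 207 ± 18.4 in Serum. The other eIF3 genes, Eif3d, Eif3e, Eif3g, Eif3h and Eif3k, were lower in 2i than in Serum by fold changes between -0.42 and -0.25 and not called in the other comparisons. The highest eIF3 mRNA exceeded the lowest 5.76 ± 0.64-fold in Paused, 7.03 ± 0.91-fold in 2i and 4.96 ± 0.62-fold in Serum (SD, n = 3). In every library the lowest was Eif3j1 and the highest Eif3k, so this ratio follows the gene of the loosely bound subunit j. The next lowest by mean was Eif3m, at 163 FPKM in Paused, 123 in 2i and 179 in Serum. Eif3k averaged 362, 330 and 406 FPKM in the same order.

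Of the factors that act when the large subunit joins, Eif5, the GTPase activator of eIF2, had 92.4, 105 and 85.7 FPKM in Paused, 106, 79.1 and 65.0 in 2i and 103, 99.5 and 83.8 in Serum. Eif5b, the joining GTPase, had 38.8, 40.6 and 39.7 FPKM in Paused, 38.5, 34.2 and 35.5 in 2i and 41.8, 38.4 and 45.1 in Serum. Neither was called in any comparison. Eif6 on chromosome 2 (155819837 to 155826925), which keeps the large subunit from joining too early and acts in its assembly, had 127, 125 and 127 FPKM in Paused, 119, 111 and 119 in 2i and 203, 189 and 201 in Serum. Serum libraries lay above all others, and Eif6 was lower in Paused (-0.65 ± 0.064, adjusted p = 0.0096) and in 2i (-0.76 ± 0.064, adjusted p = 0.001) than in Serum. The fall in 2i was -0.76 in each of the 3 lines.

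eIF5A carries the modified amino acid hypusine and helps ribosomes through slow peptide bonds and termination. Eif5a on chromosome 11 (69916712 to 69921958) had 1096, 1073 and 1109 FPKM in Paused, 999, 815 and 825 in 2i and 1533, 1712 and 1684 in Serum. The conditions did not overlap, and Eif5a was lower in Paused (-0.59 ± 0.10, adjusted p = 0.02) and in 2i (-0.91 ± 0.10, adjusted p = 0.002) than in Serum and higher in Paused than in 2i (0.32 ± 0.10, adjusted p = 0.047). Eif5a overlaps Gps2 in RefSeq. Its paralog Eif5a2 had 5.07, 3.97 and 5.55 FPKM in Paused, 5.23, 3.67 and 3.43 in 2i and 4.04, 4.54 and 3.50 in Serum and was not called.

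The eEF1 genes encode the carrier of aminoacyl-tRNA and the eEF1B complex that recharges it with GTP, and 4 of the 6 could be tested. Eef1b2, an exchange subunit on chromosome 1 (63176831 to 63180486), had 1041, 941 and 825 FPKM in Paused, 642, 640.1 and 665 in 2i and 855, 797 and 804 in Serum. Its 2i libraries lay below all others, with a fold change of 0.52 ± 0.090, adjusted p = 0.0055 in Paused against 2i and -0.33 ± 0.090, adjusted p = 0.027 in 2i against Serum. Eef1g, the scaffold subunit, had 1284, 1159 and 1157 FPKM in Paused, 1065, 991 and 1014 in 2i and 1287, 1174 and 1219.9 in Serum. It was likewise lower in 2i than in Serum (-0.26 ± 0.065, adjusted p = 0.021) and higher in Paused than in 2i (0.23 ± 0.065, adjusted p = 0.03), with Paused and Serum overlapping.

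Eef1d, the other exchange subunit, on chromosome 15 (75894796 to 75909784), differed from Eef1b2 and Eef1g. It had 159, 173 and 147 FPKM in Paused, 292, 179 and 184 in 2i and 301, 309.9 and 261 in Serum. Its Paused libraries were the lowest, and its fold change in Paused against Serum was -0.86 ± 0.16, adjusted p = 0.022, at -0.92 for E14, -0.84 for v6.5 and -0.83 for Oct4 GiP. In 2i against Serum, E14 stood at -0.04 and v6.5 at -0.78, and the fold change of -0.44 ± 0.16 was not called. Eef1d overlaps Tigd5 in RefSeq. Eef1e1, also named AIMP3 and known as a part of the tRNA synthetase complex, had 207, 160.4 and 237 FPKM in Paused, 214, 138 and 171 in 2i and 263, 239 and 226 in Serum, and was lower in 2i than in Serum (-0.49 ± 0.14, adjusted p = 0.034).

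Eef2 on chromosome 10 (81176631 to 81182509) encodes the translocase eEF2. It had 2196, 2086 and 1896 FPKM in Paused, 1248, 1226 and 1256 in 2i and 1447, 1681 and 1206 in Serum. Every Paused library lay above all others, and the mean ratio was 1.43 in Paused over Serum and 1.66 in Paused over 2i. The fold change was 0.52 ± 0.11, adjusted p = 0.027 in Paused against Serum, where it turned to -0.41 on the authors' scale and was called lower there (adjusted p = 0.031). It was 0.73 ± 0.11, adjusted p = 0.0035 in Paused against 2i, where it was 0.16 on the authors' scale and not called. Eef2 hosts Snord37, a small nucleolar RNA, in RefSeq, and has 1 named pseudogene.

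Eef2k encodes the kinase that phosphorylates eEF2 and slows elongation, and which the mTor pathway holds in check at the protein level. Its mRNA was low, at 4.44, 2.28 and 6.60 FPKM in Paused, 8.23, 6.10 and 6.49 in 2i and 2.59, 3.59 and 2.98 in Serum. It was higher in 2i than in Serum (0.97 ± 0.28, adjusted p = 0.035), a call lost without a 2i library of any line, the Serum library of E14 or Oct4 GiP, or the Paused library of E14. In Paused the lines spread, at 0.60 for E14, -0.49 for v6.5 and 0.93 for Oct4 GiP against Serum. Eef2kmt, a methyltransferase of eEF2, averaged 14.9 ± 3.45 FPKM in Paused, 19.5 ± 1.71 in 2i and 13.6 ± 5.64 in Serum, and was higher in 2i than in Serum (0.57 ± 0.17, adjusted p = 0.036). That call was lost without the 2i or the Serum library of v6.5 or Oct4 GiP, or without a Paused library of any line. Eefsec, which carries the selenocysteine tRNA, had 18.2, 22.0 and 24.4 FPKM in Paused, 27.7, 38.9 and 26.9 in 2i and 26.1, 18.5 and 22.7 in Serum and was not called.

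**Figure D3:**
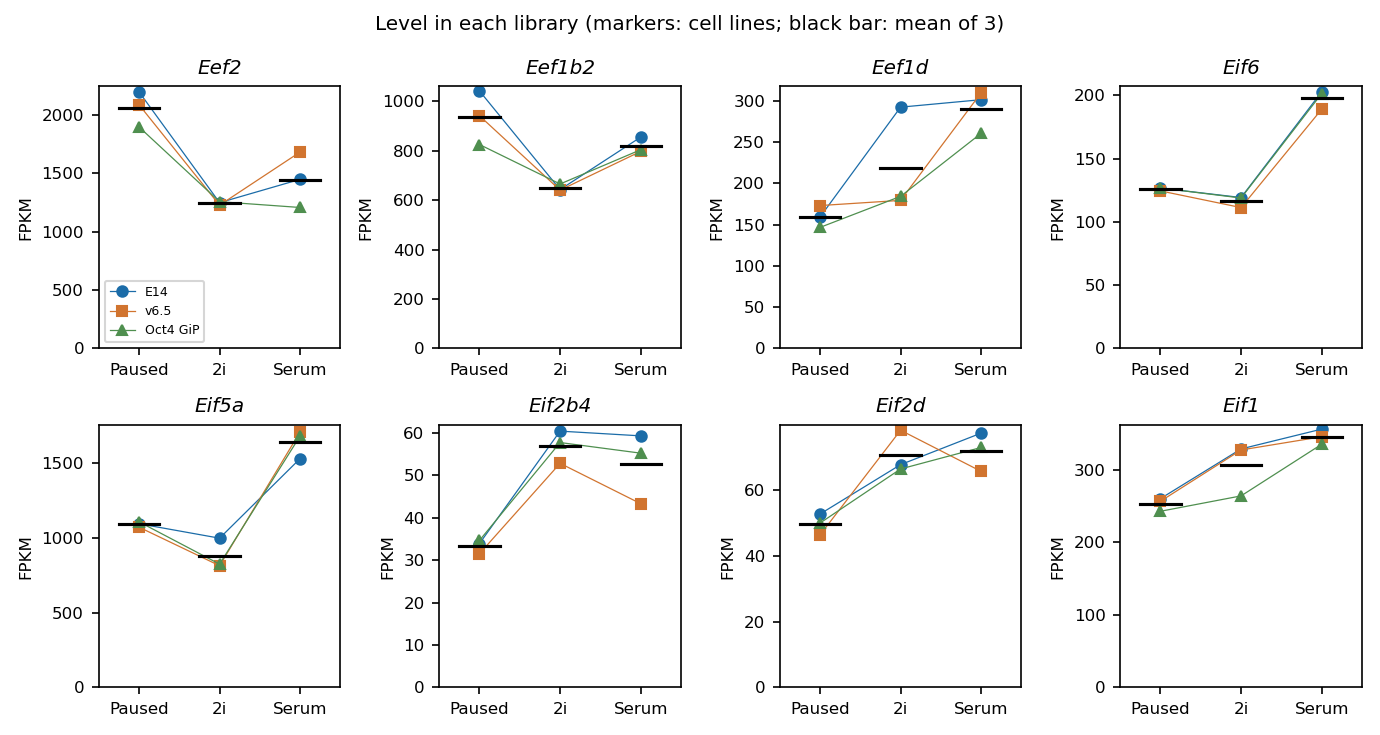
FPKM of 8 factors in each library, by condition; markers are the cell lines, thin lines join the libraries of a line and black bars are means of 3. Eef2 is highest in the Paused libraries (1896 to 2196 FPKM), Eef1b2 is lowest in 2i, Eif6 and Eif5a are highest in Serum, and Eif2b4, Eif2d and Eif1 are lowest in Paused.

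The eEF2 group summed to 2079 ± 151 FPKM in Paused, 1269 ± 17.5 in 2i and 1462 ± 236 in Serum (SD, n = 3), nearly all of it from Eef2, which averaged 2059 in Paused, 1243 in 2i and 1445 in Serum. The eIF3 genes summed to 2925 ± 50.5 FPKM in Paused, 2643 ± 204 in 2i and 3349 ± 39.4 in Serum. The eIF5A genes summed to 1098 ± 19.1 FPKM in Paused, 884 ± 104 in 2i and 1647 ± 96.6 in Serum, and the eIF2B genes to 254 ± 15.8 in Paused, 320.04 ± 40.2 in 2i and 317 ± 10.3 in Serum. So the Paused libraries held the lowest eIF2B sum and the highest eEF2 sum, and the 2i libraries the lowest eIF5A sum. Over all 44 genes the sums were 10469 ± 418 FPKM in Paused, 9149 ± 608 in 2i and 11358 ± 324 in Serum.

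**Figure D4:**
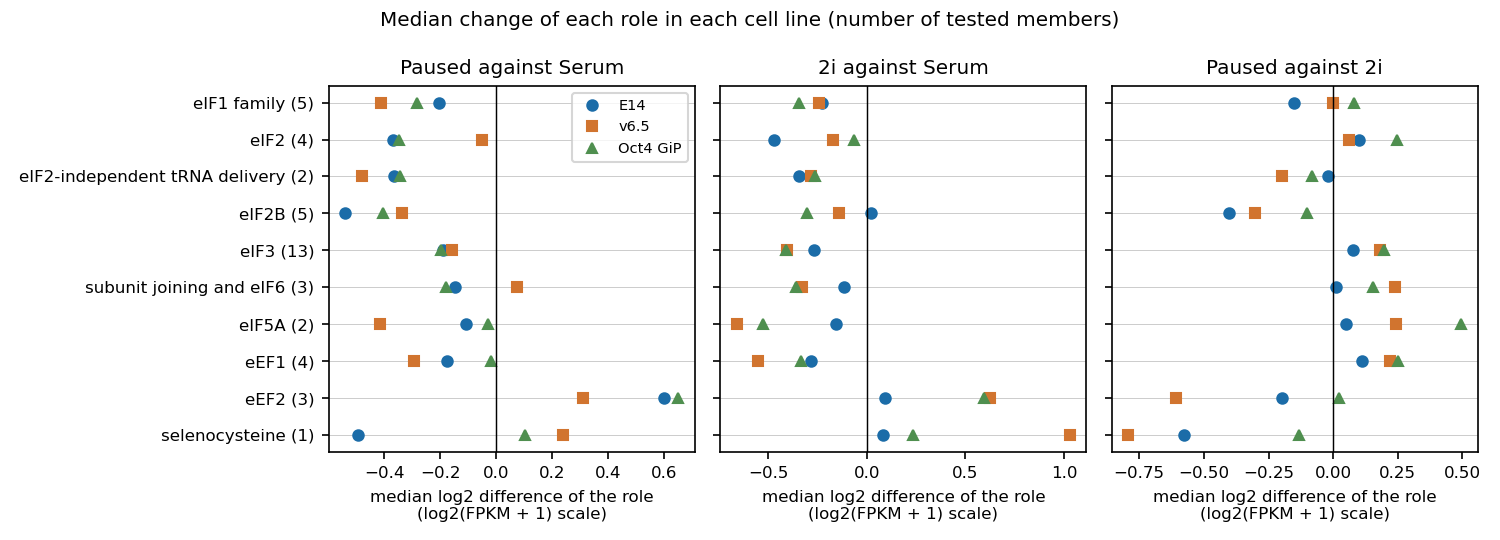
Median log2 difference (log2(FPKM + 1) scale) of each role in each cell line and comparison, with the number of tested genes in brackets. The median of the 13 eIF3 genes lies below 0 in every line against Serum and above 0 in every line in Paused against 2i, though single genes differ, as Eif3i does in Paused against 2i. The median of the 3 genes of the eEF2 group lies above 0 in every line against Serum, in 2i through the low genes Eef2k and Eef2kmt; on the authors' scale no factor was called higher in any comparison.

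Other genes of the translation machinery were taken from lists drawn up with earlier results of these data known, and 26 of 28 could be tested. In Paused against Serum 1 was called higher, against 7.64% of all tested genes, and 6 lower, against 10.5%. In 2i against Serum 5 were higher, against 21.7%, and 9 lower, against 18.9%, and in Paused against 2i 4 were higher, against 19.8%, and 6 lower, against 24.6%. The counts in Paused against 2i were thus near those of all genes. Dph3, which helps make the diphthamide on eEF2, averaged 10.4 ± 0.64 FPKM in Paused, 16.0 ± 3.6 in 2i and 23.8 ± 2.45 in Serum, and was lower in Paused than in Serum (-1.12 ± 0.17, adjusted p = 0.015) and than in 2i (-0.56). Pabpc4, a poly(A) binding protein gene, and Pelo, which rescues stalled ribosomes, were lower in Paused than in Serum, at -0.66 and -0.63. Mcts1, which acts in reinitiation together with Denr, averaged 19.8 ± 2.21 FPKM in Paused, 12.6 ± 3.07 in 2i and 24.0 ± 5.93 in Serum. It was lower in 2i than in Serum (-0.88 ± 0.14, adjusted p = 0.0045) and higher in Paused than in 2i (0.63). Gspt1, the partner of the termination factor eRF1, was lower in 2i than in Serum (-0.67), and Paip2, an inhibitor of poly(A) binding proteins, was higher in Paused than in 2i (0.59).

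Of the kinases and phosphatase subunits that act on eIF2, 4 of 6 were called higher in 2i than in Serum, against 21.7% of all tested genes, and 1 of 6 in Paused than in Serum, against 7.64%, so no more than a single gene there. The 4 were the kinases Eif2ak3 and Eif2ak4 and the phosphatase subunits Ppp1r15a and Ppp1r15b. On the authors' scale their fold changes in 2i against Serum were 0.093, 0.30, -0.069 and 0.16. Eif2ak4, the kinase that senses uncharged tRNA, averaged 6.70 ± 0.29 FPKM in Paused, 9.16 ± 0.87 in 2i and 5.68 ± 0.39 in Serum (0.60 ± 0.088, adjusted p = 0.0039, in 2i against Serum). Eif2ak2, the kinase activated by double-stranded RNA and named here after its values were seen, averaged 390.3 ± 31.2 FPKM in Paused, 273 ± 42.9 in 2i and 267 ± 29.1 in Serum. It was higher in Paused than in Serum (0.55 ± 0.080, adjusted p = 0.014) and than in 2i (0.52 ± 0.080, adjusted p = 0.0037), and on the authors' scale these values were below 0, at -0.38 and -0.04.

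The lines were compared over the 3 conditions by the F test of the same fit. It called 0 of the 42 factors between E14, v6.5 and Oct4 GiP, against 1.5% of all tested genes, and at an unadjusted p under 0.05 it gave 1 factor, Eef2kmt (adjusted p = 0.169), and 2417 genes. Without the condition term it called 0 factors and 8 genes. Without the E14 library in 2i, Eif2s3y was called (adjusted p = 0.015). Its level was 17.5 ± 2.33 FPKM in v6.5, against 57.5 ± 13.7 in Oct4 GiP (SD, n = 3).

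On the authors' scale the picture moved with the shift of all genes. The authors' constants averaged 1.88 ± 0.095 in Paused, 2.80 ± 0.36 in 2i and 3.59 ± 0.17 in Serum (SD, n = 3). In Paused against Serum 0 factors were called higher on that scale, against 0.378% of genes, and 40 lower, against 76.9%, so 40 of 42 were called, against 77.3% of genes, and the median factor stood at -1.13. In 2i against Serum 0 were higher, against 9.76% of genes, and 32 lower, against 35.7%, so 32 of 42 were called, against 45.5%, with a median of -0.65. In Paused against 2i 0 were higher, against 6.21% of genes, and 26 lower, against 54.5%, so 26 of 42 were called, against 60.7%, with a median of -0.43. At an unadjusted limma-trend p under 0.05, the counts higher on the authors' scale were 0 in Paused against Serum, 1 in 2i against Serum and 0 in Paused against 2i. Of the 10 factors higher in Paused than in 2i in FPKM, 9 turned below 0 on the authors' scale and Eef2 stayed above it.

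**Figure D5:**
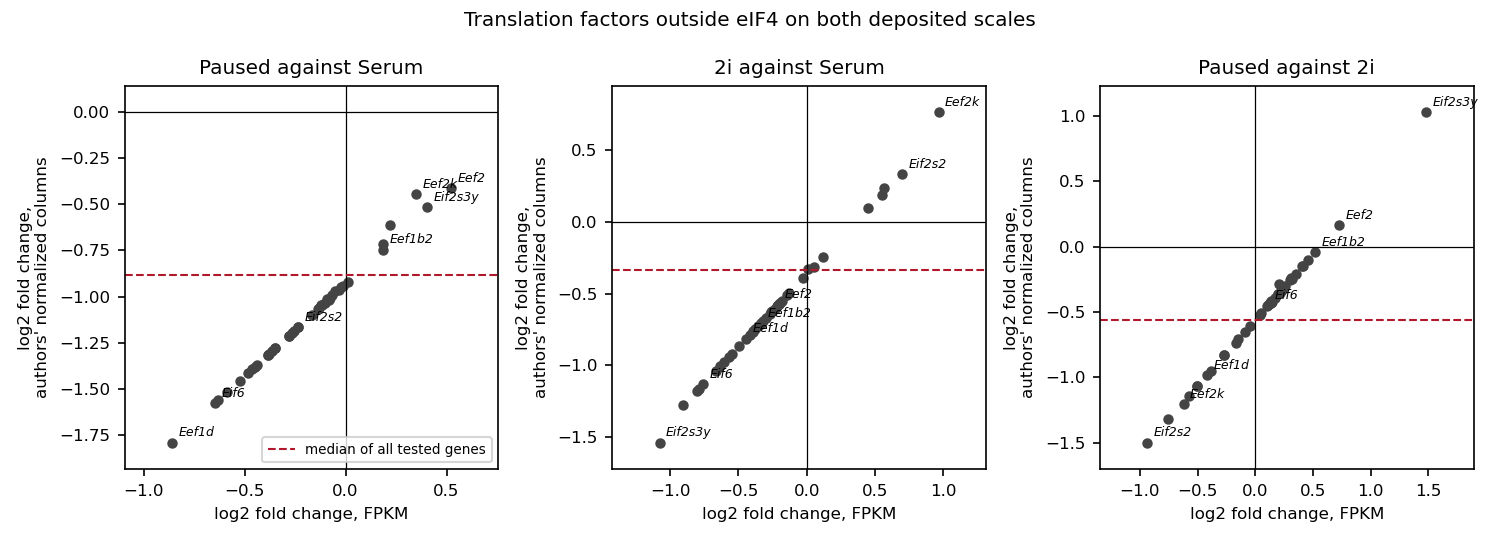
Log2 fold changes of the 42 tested factors in FPKM (x axis) and in the authors' normalized columns (y axis), 1 point per factor; the dashed line is the median of all tested genes in the authors' columns. The factors lie below their FPKM values by a median of -0.93 in Paused against Serum, -0.37 in 2i against Serum and -0.56 in Paused against 2i, so Eef2 in Paused against Serum is above 0 on the x axis and at -0.41 on the y axis.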

How the data were processed

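RNA-seq was measured in 9 libraries of mouse ES cells, with 1 library for each of 3 lines in each of 3 conditions. The authors deposited 1 table of 29801 rows with FPKM for each library, made with Cuffnorm on mm10, per the submitters' processing notes. Libraries were made with a directional kit, per the labels' protocols. Its second kind of column, headed normalized expression, is a signal that equals the deposited FPKM times 1 constant per library. The sources used here do not give the origin of that constant, the aligner, the annotation or whether counting used strand. With no read counts in the table, depth is unknown and counting intervals are left out. Summed FPKM ran from 1451983 to 2133969 per library. Rows without a gene name (5644) held 52.8% to 64.0% of it and were left out, with 113 identical repeats.

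The 12711 genes that reached 1 FPKM in 3 or more of the 9 libraries were fitted with limma-trend (limma 3.58.1, R 4.3.3) on log2(FPKM + 1), all 9 libraries together and the cell line as a block, with Benjamini-Hochberg adjustment and a threshold of 0.05. P-values measure how differences between conditions vary over these 3 lines. No number of all genes stands beside counts at an unadjusted p under 0.05, except in the test between the lines. The pairing comes from the labelled line: deviations from condition means correlated at -0.001 to 0.401 between libraries of a line and -0.243 to 0.094 between lines. The factors, gene lists and tests were chosen with earlier results of these data known. Values of every library are given for up to 8 called factors with the largest change per comparison and for a fixed panel, and of the other lists up to 3 called genes per comparison are named. Gene positions, overlaps, pseudogenes and start windows come from RefSeq on GRCm38.p6, matched by symbol for 44 of 44 genes. There 18 of the 44 overlap another gene, and the Results do not name every overlap. Among called factors, Eif1ad overlaps Banf1, Eef2kmt overlaps Alg1, Eef1b2 overlaps Snora41, and Eif2s3x has 1 named pseudogene. Alternatives were a pseudocount of 0.1, no filter, the authors' columns, centring on the median gene, no block, only the 6 libraries compared, and leaving out each library or line.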

Additional observations from a re-analysis of the deposited data

Results flagged for a closer look

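Eif2s2, the beta subunit gene of eIF2, moved in opposite directions among the lines in Paused against Serum. The log2 difference was -0.73 for E14, 0.65 for v6.5 and -0.62 for Oct4 GiP, a range of 1.38, with each line moving by at least 0.5. The E14 library had 439 FPKM in Paused and 731 in Serum, the v6.5 library 612 in Paused and 390.4 in Serum, and the Oct4 GiP library 332 in Paused and 509 in Serum. Each line gave 1 library per condition, so the difference between the lines was not tested.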

How the results depend on the processing

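With a pseudocount of 0.1, every count of called factors, every median and every single call kept its direction and its side of the threshold. Without a filter on low values, the number called higher was 0 in Paused against Serum, 1 in 2i against Serum and 5 in Paused against 2i. With only the 6 libraries compared, 2i against Serum gave 1 higher and 9 lower among the factors and 2985 called genes, and Paused against 2i gave 3 factors higher, whereas Paused against Serum gave 15 lower and 2719 called genes. The cause was not tested. Centred on the median gene of each library, the median factor stood at -0.23 in Paused against Serum, -0.39 in 2i against Serum and 0.22 in Paused against 2i, with 14 factors higher and 4 lower in the last. The shares of all genes called higher and lower after centring are not given here. On the authors' scale, Paused against Serum gave 0 higher and 40 lower, 9827 called genes and a median of -1.13, 2i against Serum gave 0 higher and 32 lower with a median of -0.65, and Paused against 2i gave 0 higher and 26 lower with a median of -0.43. The sign turned there, through the constants themselves, for Eef2 in Paused against Serum (-0.41) and, in Paused against 2i, for Eef1b2 (-0.043), Eif5a (-0.24), Eif2s1 (-0.24), Eif3l (-0.30), Eef1g (-0.33), Eif3j1 (-0.15), Eif3m (-0.15), Eif2a (-0.26) and Eif3b (-0.21).

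Without the replicate block, 1 factor was higher and 12 lower in Paused than in Serum, with 1602 called genes and a median of -0.20. Without it, 2 were higher and 19 lower in 2i than in Serum (4368 genes), 7 were higher and 5 lower in Paused than in 2i (4797 genes). For the test between the lines, where the condition term was dropped instead, 0 factors were called. Calls lost without the block were 3 in 2i against Serum and 4 in Paused against 2i, and none was lost in Paused against Serum.

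Leaving out 1 library gave, in Paused against Serum, 0 to 16 factors lower, 0 to 1 higher, 12 to 3223 called genes and medians of -0.25 to -0.14. In 2i against Serum it gave 10 to 23 lower, 0 to 3 higher, 2969 to 5436 called genes and medians of -0.30 to -0.26. In Paused against 2i it gave 2 to 11 higher, 2 to 5 lower, 3543 to 5611 called genes and medians of 0.10 to 0.19, and between the lines 0 to 1. Leaving out a whole line gave, in Paused against Serum, 0 called factors, 4 to 7 called genes and medians of -0.19 to -0.15. It also gave 12 to 18 factors lower at an unadjusted limma-trend p under 0.05, with no share of all genes at that cutoff. In 2i against Serum it gave 2 to 17 lower, 1 to 2 higher, 1269 to 4102 called genes and medians of -0.30 to -0.29, and in Paused against 2i 2 to 9 higher, 2 to 3 lower, 2073 to 3925 called genes and medians of 0.11 to 0.19. With 1 library per line and condition, calls near the threshold rest on few libraries.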
